A study of Mus musculus with 4 samples.

Results

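The MHC class II genes Cd74, H2-Aa, H2-Ab1 and H2-DMa are 4 of the 397 genes of an immune gene panel that was read in single cells of the brains of 5XFAD mice, a transgenic model of amyloid-β amyloidosis. The 4 genes were chosen by name, as the genes of the class II pathway to be described in cells with Trem2 and in macrophages, B cells and T cells. Cd74 lies on chromosome 18, at 60803849 to 60812652 of GRCm38.p6, and the other 3 lie within the MHC. Cells came from the right hemisphere without cerebellum or olfactory bulb of 4 males aged 9 months. The genotypes were 5XFAD;Abi3-/- (2 mice) and 5XFAD;Abi3+/+ (2 mice), so that every mouse carried the 5XFAD transgenes and no mouse without amyloid was measured. In 5XFAD mice the neuronal Thy1 promoter drives the transgenes. The Abi3-/- allele is a deletion of the whole locus and thus a null in every cell of the body. The 5XFAD parents were of a B6SJL hybrid stock and the Abi3-/- parents of C57BL/6N stock, and the MHC haplotype of each mouse is not given in the sources used here. Whether the panel reads the alleles of these stocks equally was not tested, a limit on every difference between mice in H2-Aa, H2-Ab1 and H2-Eb1. Abi3 itself is not among the panel genes, so the genotypes rest on the labels.

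Each mouse gave 1 library, and the mouse was the unit of every comparison between genotypes. Mouse and library cannot be told apart, and an exact permutation test of 2 against 2 mice cannot give a two-sided p below 0.333. Of 21172 cells in the tables, 13820 had 40 or more genes with a read and at most 59300 reads. These cells are called kept cells, and the 4 mice gave between 2321 and 4499 of them, with median reads per cell between 19647.5 and 24283. The values are whole reads after the error correction of the authors' pipeline and not molecules, so intervals, and the limits given beside counts of 0, cover counting error only. Pairs of libraries shared between 17 and 42 cell barcodes, of which 6 to 18 were those of kept cells. Trem2, a lipid-sensing receptor of microglia and of some macrophages, had reads in 13160 kept cells, or 94.3% to 96.8% of the kept cells of a mouse. These Trem2-positive cells were all used, whatever their class II reads. C1qa and C1qb, complement genes that mark microglia in the brain, had reads in 99.8% and 98.9% of the 12988 kept cells that no named class took up. The named classes, clustered without the class II genes, were 322 T cell-like, 171 macrophage or monocyte-like, 53 B cell-like, 114 neutrophil-like and 172 ependymal or astrocyte-like cells.

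MHC class II molecules present peptides from ingested proteins to CD4 T cells. The peptide groove is built from an α and a β chain, and for the I-A molecule of the mouse these are the products of H2-Aa and H2-Ab1. Cd74 encodes the invariant chain, which occupies the groove of a new class II molecule and guides it to the endosome, and which also serves as a surface receptor for the cytokine MIF. H2-DMa encodes the α chain of H2-M, the endosomal helper that exchanges the last remnant of the invariant chain for a peptide. B cells, dendritic cells and many macrophages express the pathway constitutively, while microglia of a healthy brain have little of it and raise it in inflammation, interferon-γ being the classical inducer through the transactivator CIITA. The panel also held H2-Eb1 (β chain of the I-E molecule), H2-DMb2 (a β chain of H2-M) and H2-Ob (the β chain of H2-O, an inhibitor of H2-M). Ciita itself was not read.

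H2-Aa, H2-Ab1 and H2-DMa lie on chromosome 17, at chr17:34282744-34287823, chr17:34263227-34269418 and chr17:34119693-34139101 of GRCm38.p6. Class II promoters carry an X box, where RFX binds, and a Y box, an inverted CCAAT element bound by NF-Y. The first 100 bases before the start of H2-Aa, of its neighbour H2-Eb1, of H2-DMb2, of H2-Ob and of the first listed start of H2-DMa are shown from RefSeq (GRCm38.p6), to set the pathway genes with a listed promoter side by side. Each is read 5′ to 3′ on the strand of its gene, and capitals mark GATTGG or its reverse complement CCAATC.
H2-Aa (chr17:34287824-34287923, minus strand): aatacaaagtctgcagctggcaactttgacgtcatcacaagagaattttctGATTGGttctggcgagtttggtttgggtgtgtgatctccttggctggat
H2-Eb1 (chr17:34305767-34305866, plus strand): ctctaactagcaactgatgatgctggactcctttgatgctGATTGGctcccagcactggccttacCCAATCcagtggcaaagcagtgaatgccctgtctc
H2-DMb2 (chr17:34145149-34145248, plus strand): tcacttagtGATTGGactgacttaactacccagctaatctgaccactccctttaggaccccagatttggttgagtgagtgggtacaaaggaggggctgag
H2-Ob (chr17:34238805-34238904, plus strand): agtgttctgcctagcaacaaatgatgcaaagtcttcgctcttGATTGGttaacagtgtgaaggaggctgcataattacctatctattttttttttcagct
H2-DMa, first start (chr17:34122732-34122831, plus strand): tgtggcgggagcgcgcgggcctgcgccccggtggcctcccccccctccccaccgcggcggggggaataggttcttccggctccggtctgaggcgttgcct
GATTGG stood 49 to 44 bases before the start of H2-Aa and 60 to 55 bases before that of H2-Eb1, 91 to 86 before that of H2-DMb2 and 58 to 53 before that of H2-Ob. The listed starts of H2-DMa and H2-DMb2 lie inside the spans given for these genes (chr17:34143229-34151553 for H2-DMb2). Those of H2-Aa, H2-Eb1 and H2-Ob lie at the edge of the gene, so the windows are not alike. The letters were not in the window shown for H2-DMa, whose second listed start had them 199 to 194 bases upstream. They were found on either strand in 8.62% of all 32851 promoters in a window of this length, and in 16.1% of the windows of 300 bases. Nearly all reads of H2-DMb2 and H2-Ob in Trem2-positive cells, as of H2-DMa, came from microglia and other cells of no other named class. For H2-DMb2 and H2-Ob these shares were 96.1% to 97.8% and 98% to 99.7% in the 4 mice. They were 6.45% to 51.8% for H2-Aa and 6.02% to 42.3% for H2-Eb1. Whether the letters bear on these shares was not tested. A match is a description of the letters and not of binding. Cd74 and H2-Ab1 are named only.

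The class II genes divided the Trem2-positive cells into a majority with H2-DMa and a minority with the peptide-binding chains or the invariant chain. H2-DMa had a read in 70.5% of the 13160 cells, Cd74 in 13.7%, H2-Ab1 in 7.01% and H2-Aa in 3.89%. These are shares of cells with a read and not levels, and the genes may differ in how well the panel reads them. A cell that counted as positive had at least 8 reads of Cd74, 10 of H2-Aa, 9 of H2-Ab1 or 10 of H2-DMa. These are reads after error correction and not molecules, so such a minimum does not show that more than 1 molecule was read. As a background, T cell-like cells, which do not express class II genes in the mouse, had a Cd74 read in 4 of 322 cells, an H2-Aa read in 1 and an H2-Ab1 read in none, at medians of 15231 to 17405 reads per cell against 19802.5 to 24765.5 in Trem2-positive cells. H2-DMa had a read in 42 of the 322 T cell-like cells, a share far below that in Trem2-positive cells.

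Levels are given as CPM, the reads of a gene in a cell group of a mouse scaled to the summed panel reads of that group. In these levels, macrophage or monocyte-like cells ranked first for each of the 4 genes. Cd74 gave 59141 ± 13570 CPM (SD, n = 4 mice) in these cells, 12336 ± 3614 in B cell-like cells and 1087 ± 465 in Trem2-positive cells, and the ranges of these 3 populations did not overlap. In ependymal or astrocyte-like cells Cd74 gave 827.5 ± 661 CPM, which overlapped the Trem2-positive range, and T cell-like cells (32.9 ± 49.6) and neutrophil-like cells (60.1 ± 120) were near 0. H2-Aa followed the same order, with 145823 ± 32507 CPM in macrophage or monocyte-like cells, 68361 ± 29310 in B cell-like cells and 1545 ± 760.5 in Trem2-positive cells. For H2-Ab1 these levels were 51903 ± 14116, 15816 ± 7566 and 631 ± 297 CPM. H2-DMa was flatter, with 11318 ± 3623 in macrophage or monocyte-like cells, 4978 ± 930 in B cell-like cells and 3802 ± 716 in Trem2-positive cells. B cell-like and Trem2-positive cells overlapped in their H2-DMa levels, whereas T cell-like cells, at 517 ± 100 CPM, lay below both.

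Few Trem2-positive cells belonged to the named classes, yet these few held much of the class II signal. Macrophage or monocyte-like cells made up 0.592%, 0.656%, 0.381% and 1.16% of the Trem2-positive cells of Abi3-/- males 1 and 2 and Abi3+/+ males 1 and 2. They gave 48.1%, 89%, 74.6% and 92.3% of the H2-Aa reads of Trem2-positive cells in the same order, and 39.3%, 63%, 64.6% and 80.3% of the H2-Ab1 reads. Their part of the Cd74 reads was 32.9%, 32.5%, 46.3% and 77%. For H2-DMa it was only 1.61% to 3.42%, and nearly all of its reads lay in the microglia and other cells that belonged to no named class. The 131 Trem2-positive cells of the macrophage or monocyte-like, T cell-like, neutrophil-like and B cell-like classes were therefore also left out where stated. The 13029 that remained are called cells outside the other classes.

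**Figure D1:**
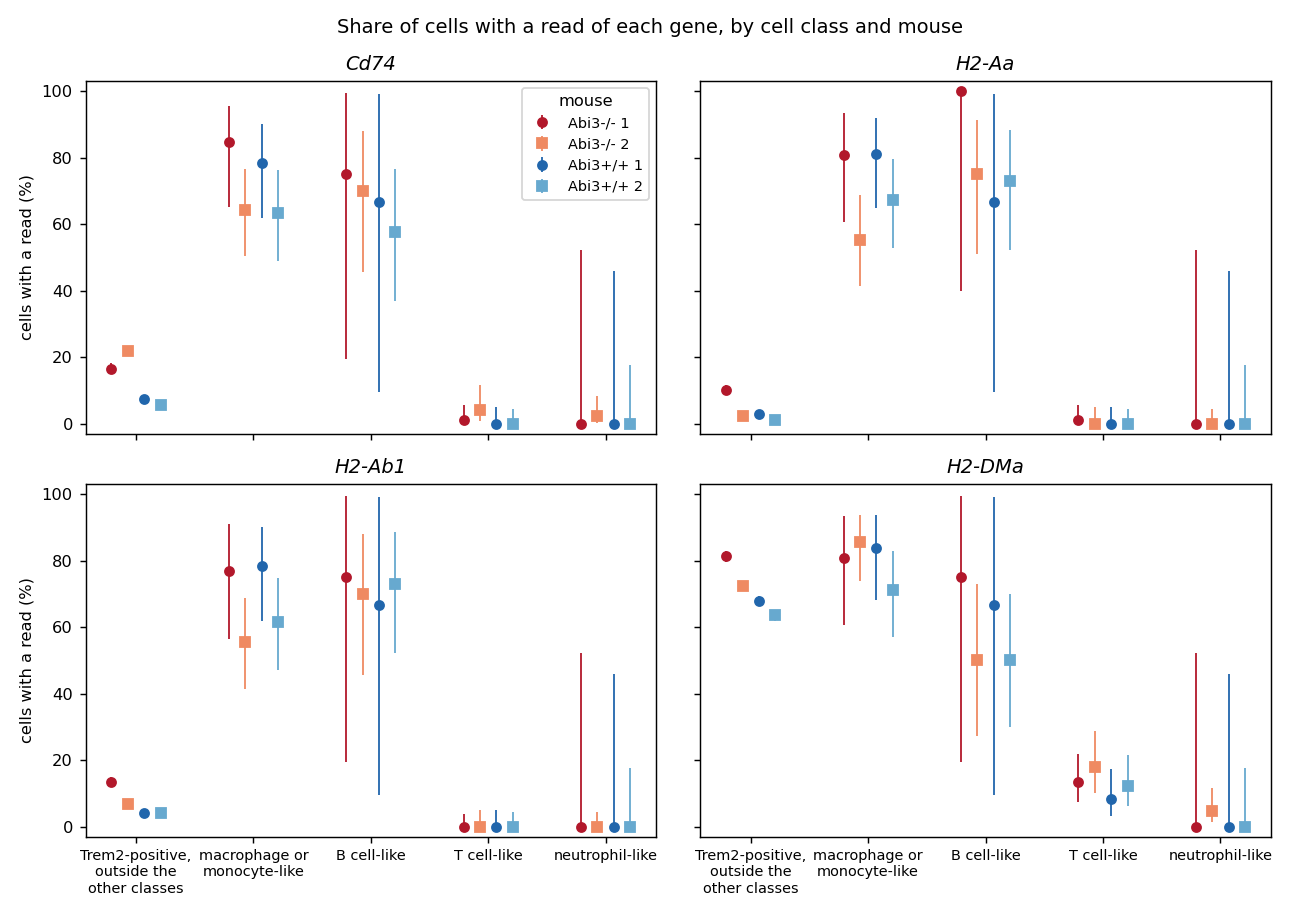
Share of cells with a read (%, y axis) of each gene in Trem2-positive cells outside the other classes and in 4 named classes, with 1 point per mouse, a colour and symbol for each mouse, and lines for the exact 95% binomial interval, which covers counting error only. H2-DMa lay at 63.5% to 81.2% in the Trem2-positive cells, where H2-Aa lay at 1.01% to 10.2%, against 55.4% to 81.1% for H2-Aa in macrophage or monocyte-like cells.

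Co-detection joined Cd74 to H2-Aa and H2-Aa to H2-Ab1, and involved H2-DMa less. Among Trem2-positive cells with a Cd74 read, 50.1% and 8.03% of those of Abi3-/- males 1 and 2 and 30.0% and 17.5% of those of Abi3+/+ males 1 and 2 had H2-Aa. Without a Cd74 read these shares were 2.52%, 0.933%, 0.945% and 0.707%, lower in every mouse. H2-Ab1 was found in 67.4%, 40.2%, 44.1% and 61.1% of the cells with H2-Aa and in 3.07% to 7.54% of those without. The reverse share was smaller, since H2-Aa was found in only 51.5%, 14%, 32.3% and 22.1% of the cells with H2-Ab1. All these shares include the cells of the named classes. Outside the other classes the cells with both chains went from 157, 43, 52 and 33 to 147, 28, 40 and 10 in the 4 mice. H2-DMa had a read in 70.7% to 86.1% of the cells with Cd74 and in 62.6% to 80.03% of those without. H2-DMa was more frequent in cells with Cd74 in all 4 mice, but the ranges of the 2 kinds of cell overlapped. It was also more frequent in cells with both chains, which were read more deeply, than in all Trem2-positive cells of every mouse.

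The same division stood in the values per cell. The Pearson correlation of log-normalized values across Trem2-positive cells, averaged over the 4 mice, was 0.57 between H2-Aa and H2-Ab1, 0.56 between Cd74 and H2-Aa and 0.42 between Cd74 and H2-Ab1. Outside the other classes these values were 0.37, 0.41 and 0.27. Between Cd74 and H2-Aa the single mice then had 0.70, 0.22, 0.53 and 0.19, against 0.72, 0.32, 0.60 and 0.59 in all Trem2-positive cells. H2-DMa had correlations of 0.06, 0.08 and 0.07 with Cd74, H2-Aa and H2-Ab1, all of them weak. Across 24 points of class by mouse, by contrast, the mean value of Cd74 correlated with that of H2-Ab1 at 0.99, with that of H2-Aa at 0.98 and with that of H2-DMa at 0.82. The cells of a mouse share a library and the points share mice, so these are descriptions.

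The panel genes most like the members across Trem2-positive cells, by the same measure, were led by other class II genes for Cd74, H2-Aa and H2-Ab1. For H2-Aa the closest was H2-Eb1 (0.77), before H2-Ab1, Cd74, Clec10a (0.24) and F13a1 (0.23), the last 2 being genes of macrophages, and Clec10a of dendritic cells too. H2-Ab1 had H2-Aa, H2-Eb1 (0.56), Cd74, F13a1 (0.17) and Clec10a (0.16). After H2-Aa, H2-Eb1 (0.53) and H2-Ab1, Cd74 was closest to Lilrb4a (0.17), an inhibitory receptor, and Apoe (0.17), an apolipoprotein. H2-DMa had no correlation above 0.13 with any gene. Its 5 highest were with the complement gene C1qb (0.13), the integrin Itgam (0.12), the innate sensor Tmem173 (0.12), the selectin ligand Selplg (0.12) and Cd34 (0.11). The values of single mice for Cd34 (0.066 to 0.14) overlapped those for H2-Aa (0.061 to 0.13), so no order is read from them.

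Only a small set of Trem2-positive cells had reads of both peptide-binding chains. They were 157 and 43 cells of Abi3-/- males 1 and 2 and 52 and 33 cells of Abi3+/+ males 1 and 2, or 7.15%, 1.01%, 1.42% and 1.09% of the Trem2-positive cells. One Abi3-/- male was therefore well above the other 3 mice, which lay between 1.01% and 1.42%. Most of these cells also had reads of Cd74, H2-DMa and H2-Eb1. Cd74 had a read in 91.1%, 93%, 94.2% and 93.9% of them, H2-DMa in 93.6%, 90.7%, 90.4% and 78.8%, and H2-Eb1 in 76.4%, 74.4%, 67.3% and 81.8%. All 4 members had a read in 240 of the 285 cells. Of the 285 cells, 57 were macrophage or monocyte-like (6.37%, 32.6%, 23.1% and 63.6% of those of a mouse), 3 were B cell-like and 224 were microglia and other cells. Outside the other classes 147, 28, 40 and 10 cells had both chains, and 90.5%, 92.9% and 92.5% of those of the first 3 mice and 8 of the 10 of the last had Cd74.

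Cells with both chains were not all of the same strength. Such a cell outside the other classes had a median of 309, 108, 205 and 199.5 reads of H2-Aa in the 4 mice, and in the macrophage or monocyte-like class 8264, 7623.5, 6658 and 5873. The medians of Cd74 were 263, 216, 167 and 134 reads against 3387.5, 3110.5, 2151 and 2048. For H2-DMa the gap was smaller, with medians of 186, 122, 192 and 85 reads against 849.5, 404.5, 444 and 445. The lowest of the macrophage medians was above the highest of the others for each of these genes.

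Cd74 without a chain was the more common state of Cd74 in every mouse except Abi3-/- male 1. Of the 1801 Trem2-positive cells with Cd74, 1271 (70.6%) had neither H2-Aa nor H2-Ab1, namely 42.6% and 82.8% of those of Abi3-/- males 1 and 2 and 62% and 77.3% of those of Abi3+/+ males 1 and 2. As a share of all Trem2-positive cells they were 7.24% and 18.4% in Abi3-/- males and 4.84% and 4.97% in Abi3+/+ males. H2-DMa accompanied Cd74 in 941 of these cells and was missing in 330. Such a cell outside the other classes had a median of 54.5, 46, 49 and 58.5 reads of Cd74 in the 4 mice, against the 134 to 263 of the cells with both chains. At these counts an H2-Aa transcript could have been missed, so a cell without chain reads is a cell in which the chains were not detected at this depth. The cells were also read more deeply than those with none of Cd74, H2-Aa and H2-Ab1, with medians of 26282, 24456, 24794.5 and 30783.5 reads per cell against 23724, 18591, 19231 and 22271.

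H2-DMa without the chains was the state of most cells. It was found in 65.5%, 65.7%, 62.9% and 59.4% of the Trem2-positive cells of the 4 mice, 8348 cells in all, and in 7407 of these Cd74 was missing too. Of the cells with H2-DMa, 80.8%, 90.7%, 92.9% and 93.7% had neither chain. A single chain was seen in 865 cells. H2-Ab1 stood alone or with H2-DMa only in 116 and 375 cells, and H2-Aa in 27 and 80. None of the 4 members had a read in 15.6% and 21.2% of the Trem2-positive cells of Abi3-/- males and in 29.1% and 33.7% of those of Abi3+/+ males.

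**Figure D2:**
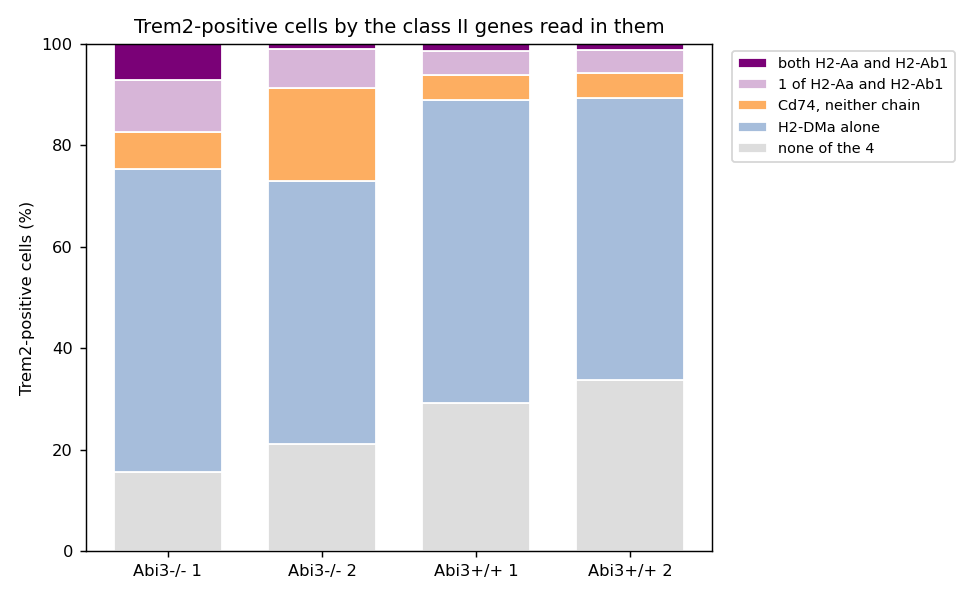
Trem2-positive cells of each mouse (1 stacked bar per mouse, % on the y axis) divided by the class II genes read in them. Both chains were found in 7.15% of the cells of Abi3-/- male 1 and in 1.01% to 1.42% of those of the others, and Cd74 with neither chain in 18.4% of the cells of Abi3-/- male 2 and in 4.84% to 7.24% of those of the others.

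Whether deletion of the Abi3 locus changed the class II genes in Trem2-positive cells was asked mouse by mouse. Cd74 and H2-DMa were more frequent in both Abi3-/- males than in either Abi3+/+ male, H2-Ab1 was too by a narrower gap, and H2-Aa was not. Cd74 had a read in 17% and 22.2% of the cells of Abi3-/- males and in 7.81% and 6.42% of those of Abi3+/+ males. The groups did not overlap, the means being 19.6% ± 3.68 and 7.12% ± 0.983 (SD, n = 2 mice each, exact two-sided permutation p = 0.333). H2-DMa had a read in 81.1% and 72.4% against 67.7% and 63.4% of cells, with means of 76.7% ± 6.15 and 65.6% ± 3.06 (n = 2 each, exact permutation p = 0.333). H2-Ab1 had a read in 13.9% and 7.21% against 4.38% and 4.93%. H2-Aa had a read in 10.6% and 2.51% against 3.21% and 1.79%, so that only 1 Abi3-/- male stood out and the groups overlapped (exact permutation p = 0.667). Groups without overlap and with both Abi3-/- males higher were common in this panel, at 26.6% of the 354 genes tested, so this order of the shares says little about the members. Thinning each cell to 11196 reads, which left out 69, 450, 305 and 124 kept cells, gave 17.2%, 23.4%, 8.25% and 6.60% for Cd74 and 81.9%, 74.6%, 69.6% and 64.4% for H2-DMa. A positive cell held at least 8 reads of Cd74 or 10 of H2-DMa, so thinning removes few detections and is a weak check of depth.

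The levels in Trem2-positive cells did not keep the order of mice seen in the shares, except for H2-DMa. Fewer cells with a gene and less RNA per cell cannot be told apart in such sums. Cd74 gave 1702 and 1171 CPM in Abi3-/- males and 644 and 830 in Abi3+/+ males, without overlap. H2-DMa gave 4857 and 3546 against 3542 and 3261, where Abi3-/- male 2 and Abi3+/+ male 1 were practically equal. The levels of H2-Aa (2428 and 919 against 901 and 1930) and H2-Ab1 (1019 and 413 against 385 and 705) overlapped. A level higher in both Abi3-/- males was found for 8.76% of the 354 genes tested and for 2 of the 4 members.

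In the test across all panel genes (edgeR quasi-likelihood, Benjamini-Hochberg adjustment over 354 genes) none of the members passed an adjusted p of 0.05, and neither did any other gene. The log2 fold change of Cd74 was 1.17 ± 0.24 (SE), with an unadjusted p of 0.00898 and an adjusted p of 0.636. H2-DMa followed with 0.51 ± 0.19 (adjusted p = 0.807), and the changes of H2-Ab1 (0.60 ± 0.54) and H2-Aa (0.44 ± 0.61) were of the size of their errors. The median over all tested genes was 0.03 and moved to -0.18 with library size alone, where Cd74 had 0.96. Unadjusted, 18 genes (5.08%) had a p under 0.05. DESeq2 called 12 of 337 genes (3.56%), of which Cd74 was one (log2 fold change 1.14, adjusted p = 0.00553), whereas the adjusted p of Cd74 in the edgeR and limma alternatives lay between 0.319 and 0.990. Without Abi3-/- male 1 the fold changes of H2-Aa and H2-Ab1 turned to -0.41 and -0.19, so their sign rested on that mouse.

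Outside the other classes the difference of Cd74 was larger in size and did not pass the threshold either. Its levels were 1154 and 797 CPM in Abi3-/- males and 348 and 190 in Abi3+/+ males, and its log2 fold change was 2.04 ± 0.41 (edgeR adjusted p = 0.547). Cd74 had a read in 16.6% and 22% against 7.53% and 5.75% of these cells. H2-Aa, at 1273 and 99.6 against 230 and 127 CPM, was high in Abi3-/- male 1 alone. H2-Ab1 gave 625 and 154 against 137 and 133, which did not overlap but were nearly equal in 3 of the 4 mice. H2-DMa kept 4786 and 3510 against 3509 and 3201. Here 10.2% of the 322 genes tested had a higher level in both Abi3-/- males, and 24 (7.45%) had an unadjusted p under 0.05 with none past the adjusted threshold.

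**Figure D3:**
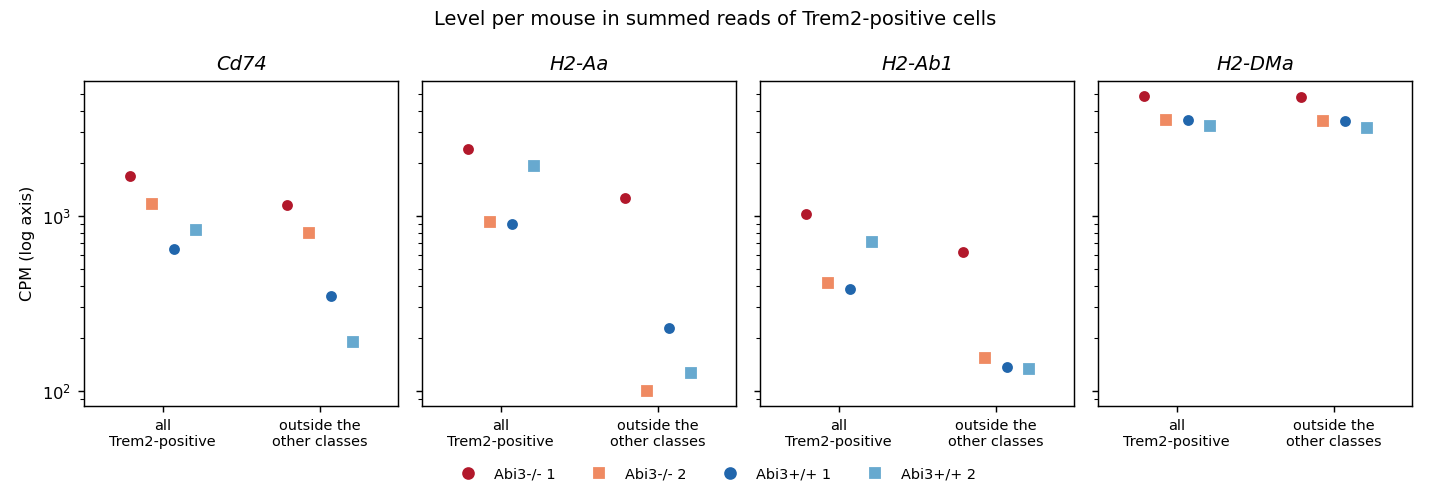
Level of each class II gene (CPM, logarithmic y axis) in all Trem2-positive cells and in those outside the other classes, with 1 point per mouse and the genotypes in separate colours. Cd74 outside the other classes was 797 and 1154 CPM in Abi3-/- males and 190 and 348 in Abi3+/+ males, whereas H2-Aa was high in Abi3-/- male 1 alone (1273).

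The 2 Abi3-/- males differed in which class II state was raised. Mouse 1 had the most cells with both chains (7.15%) and mouse 2 the most with Cd74 and no chain (18.4%). Clusters made without the class II genes were compared where they had at least 50 Trem2-positive cells of every mouse, as 8 did. Cd74 was more frequent in both Abi3-/- males than in either Abi3+/+ male in 8 of the 8 clusters, H2-DMa in 6, H2-Ab1 in 5 and H2-Aa in none. Within single clusters 12.1% to 18.6% of the 354 genes had this order, and 3 genes (0.847%) had it in all 8 clusters, 15 (4.24%) in at least 6 and 22 (6.21%) in at least 5. Both chains were most frequent in Abi3-/- male 1 in all 8, and Cd74 without a chain in Abi3-/- male 2 in all 8. Clusters of 1 mouse share its library, so these are not 8 observations.

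Among these 8 clusters, the one led by Lilrb4a, Mmp12, Il12b and Cst7, genes of which Cst7 and Lilrb4a belong to the disease-associated state of microglia, had the highest share of cells with Cd74 in every mouse. A Cd74 read was found there in 30.9% and 44.3% of the cells of Abi3-/- males and in 27.1% and 19.5% of those of Abi3+/+ males. H2-Ab1 was found in 25.5%, 17.4%, 15.8% and 11.3%, and both chains in 12.7%, 1.70%, 3.08% and 0.915%. The cluster led by Maf, a transcription factor of macrophages, had Cd74 in only 6.06%, 6.96%, 3.37% and 0% of cells. H2-DMa had another order. Among the 8 it was lowest in the cluster led by Cst7, Il1rn, Il33 and Spp1 (57.5%, 48.9%, 50.4% and 50.2%) and high in the cluster led by the chemokines Cxcl10, Ccl4 and Ccl3 (87.4%, 78.9%, 77.3% and 69.7%).

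A cluster led by Oas2, Cxcl13, Irf7 and Cxcl9, with interferon-induced genes among its leaders, held 38.4% of the Trem2-positive cells of Abi3-/- male 1, 15.1% of those of Abi3-/- male 2 and 4.25% and 4.80% of those of Abi3+/+ males. It held 46.5% and 6.98% of the cells with both chains of Abi3-/- males 1 and 2. In Abi3+/+ males 1 and 2 it held 11.5% and 3.03% of them. Within it both chains were found in 8.65%, 0.464%, 3.85% and 0.690% of the cells of the 4 mice, and Cd74 in 19.9%, 18.4%, 17.3% and 7.59%. Another cluster, led by Fosb, Egr1, Dusp1 and Jun and not among the 8, held 1.68% and 3.47% of the Trem2-positive cells of Abi3-/- males and 21% and 21.5% of those of Abi3+/+ males, with Cd74 in 8.11%, 7.43%, 2.72% and 2.77% of its cells. The part of these clusters in the difference between genotypes was not tested.

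**Figure D4:**
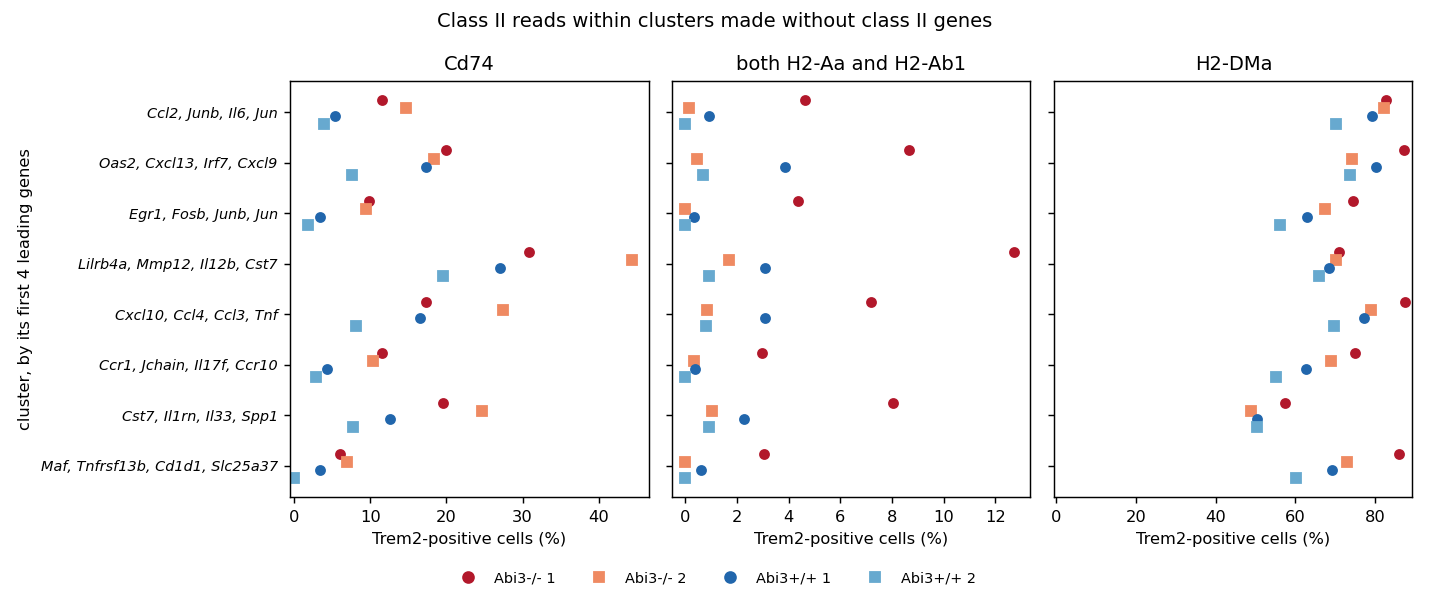
Share of Trem2-positive cells (%, x axis) with Cd74, with both chains and with H2-DMa in 8 clusters named by their leading genes (y axis), each with at least 50 such cells of every mouse, with 1 point per mouse. Cd74 peaked in the cluster led by Lilrb4a, at 19.5% to 44.3%, both chains were highest in Abi3-/- male 1 in each cluster, and H2-DMa was lowest in the cluster led by Cst7 and Il1rn, at 48.9% to 57.5%.

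What else marked the cells with both chains was asked within each mouse, by comparing them with cells that had neither chain, with the mouse as a block. Of 350 genes tested, 12 (3.43%) rose and none fell (edgeR, adjusted p under 0.05, with 89, or 25.4%, at an unadjusted p under 0.05). H2-Eb1, the I-E β chain, rose by 11.23 ± 0.77 on the log2 scale (edgeR adjusted p = 0.00253) and Cd74 by 6.83. The others included genes of dendritic cells, monocytes and macrophages, the lectin Clec10a (6.08), the growth factor receptor Flt3 (5.86), the chemokine receptor Ccr2 (4.84) and the integrin Itga4 (3.86). H2-DMa rose by 0.92. Of 12 interferon response genes 2 rose (Ifitm3, 3.04, and Ifitm2, 2.73). None of 12 genes of disease-associated microglia and none of 9 homeostatic genes passed in this fit. With the size factors of DESeq2 the split of higher to lower calls was 21 to 3, and with library size alone 22 to 9, whereas the test of DESeq2 called more genes lower than higher, 49 to 62. The summed level of 9 macrophage and monocyte markers moved with the chains, at 1354, 13788, 4721 and 6064 CPM in cells with both chains against 138, 835, 112 and 214 in cells with neither. Cells with both chains were also read more deeply, at medians of 31344, 33542, 28388 and 36939 reads per cell against 23876, 19573, 19421 and 22553.

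Outside the other classes fewer genes rose, and Clec10a and Flt3 were no longer higher, with log2 fold changes of -1.79 and -3.16. Both are leading genes of the macrophage or monocyte-like class that was left out, so their loss was largely set in advance and is not a result. The marker sum was then 79, 231, 336 and 214 CPM against 63, 91, 84 and 74, still higher in every mouse. The sums of 10 microglia, 12 B cell, 5 migratory dendritic cell and 8 cell cycle markers were lower in every mouse. The microglia sum was 290484, 187880, 237180 and 200365 CPM against 310553, 215868, 282132 and 258218. The migratory dendritic cell sum was 3656, 2872, 2775 and 2720 CPM against 4969, 5208, 5242 and 3308. The part of these markers in the calls was not tested. Of 306 genes tested 6 (1.96%) rose and none fell, with 51 at an unadjusted p under 0.05 (edgeR). H2-Eb1 rose by 8.96 ± 0.50 (adjusted p = 0.000265) and Cd74 by 5.56 ± 0.41 (adjusted p = 0.000722). Cd74 was at 10107, 10484, 8873 and 9677 CPM in cells with both chains, against 240, 622, 140 and 136 in cells with neither. The 4 others were the integrin Itgax (1.71 ± 0.27), the protease inhibitor Cst7 (1.39 ± 0.12), the MHC class I heavy chain H2-K1 (1.32 ± 0.18) and Apoe (0.79 ± 0.14). Of these, 3 belong to the list of 12 genes of disease-associated microglia, while 0 of 9 homeostatic and 0 of 12 interferon response genes passed. H2-DMa did not pass (0.21 ± 0.23, adjusted p = 0.569), nor did H2-DMb2 (-1.22) or H2-Ob (0.35). The fit over all Trem2-positive cells called 0 genes without Abi3+/+ male 1, 4 without Abi3+/+ male 2, 5 without Abi3-/- male 2 and 17 without Abi3-/- male 1.

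Cells with Cd74 and no chain were compared in the same way with cells that had none of Cd74, H2-Aa and H2-Ab1. Genes of disease-associated microglia rose and several homeostatic genes fell. Of 340 genes tested, 24 (7.06%) rose and 29 (8.53%) fell (edgeR, adjusted p under 0.05, with 99 at an unadjusted p under 0.05), and DESeq2 called 34.9% of 350, 45 higher and 77 lower. Lilrb4a rose by 1.44 ± 0.12 on the log2 scale (adjusted p = 0.00173), from 352, 774, 334 and 625 CPM in cells with none to 846, 1538, 1041 and 1808 in cells with Cd74. Every mouse showed the rise. Itgax rose by 1.12 ± 0.10, Apoe by 1.04 ± 0.14 and Cst7 by 0.98 ± 0.11. Outside the list, Mmp12, a macrophage metalloproteinase, rose by 3.81 ± 0.70, Cd72, a receptor better known from B cells, by 1.79 ± 0.17, and Cd52 by 0.85. Of the list of 12 genes of disease-associated microglia 10 rose and none fell, and the median of the list was 0.85 against -0.33 over all genes. Of the list 4 rose without Abi3+/+ male 1, 6 without Abi3+/+ male 2 and 6 without Abi3-/- male 2.

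Among the genes that fell in these cells were the fractalkine receptor Cx3cr1 and the selectin ligand Selplg, both homeostatic markers of microglia. Cx3cr1 was at 5231, 4046, 4750 and 2386 CPM with Cd74 against 6367, 5499, 8034 and 3967 without, a log2 fold change of -0.47 ± 0.09 (edgeR adjusted p = 0.0182). Selplg had -0.45 ± 0.09 (adjusted p = 0.0199). Of the homeostatic list 6 of 9 fell, with a median of -0.45, which lies close to the median of all genes. The test called none of the 9 lower without Abi3+/+ male 1, Abi3+/+ male 2 or Abi3-/- male 2, and 7 without Abi3-/- male 1. That median was -0.27 with the size factors of DESeq2 and -0.41 with library size alone, and the split of higher to lower calls was 24 to 19 and 23 to 47 under these scalings and 24 to 13 in thinned cells. H2-K1 rose by 0.47 ± 0.09, and Cd1d1 did not pass. Of 12 interferon response genes 1 rose (Ifitm3, 0.76) and 1 fell (Lgals9, -0.33), the receptor Ifngr1 fell by 0.40 and was the only one of 3 interferon-γ genes to pass, and 0 of 5 genes of costimulation and adhesion passed.

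The level of H2-DMa differed between these cells by less than its error. It was 4586, 3190, 3189 and 3258 CPM in cells with Cd74 and no chain, and 4656, 3607, 3524 and 3213 in cells with none of the 3, a log2 fold change of 0.00 ± 0.06 (edgeR adjusted p = 0.998). In cells outside the other classes 27 genes (8.68%) rose and 37 (11.9%) fell, of which 52 were among the 53 of the fit over all Trem2-positive cells. The 10 called genes of the disease-associated list kept that number, and 8 of 9 homeostatic genes fell. The count of calls in all Trem2-positive cells was 8 without Abi3+/+ male 1, 14 without Abi3+/+ male 2 and 10 without Abi3-/- male 2. The summed level of 7 ependymal and astrocyte markers was lower with Cd74 in every mouse, at 47, 146, 61 and 118 CPM against 102, 291, 164 and 319, and outside the other classes at 10, 128, 61 and 118 against 102, 197, 165 and 308. The sums of 10 microglia and of 5 migratory dendritic cell markers were likewise lower in every mouse, at 4324, 4030, 3859 and 2281 against 5023, 5539, 5328 and 3362 CPM for the latter. The part of these markers in the calls was not tested. The cells differed in depth, as given above, and the part of depth was not tested beyond the thinned cells.

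**Figure D5:**
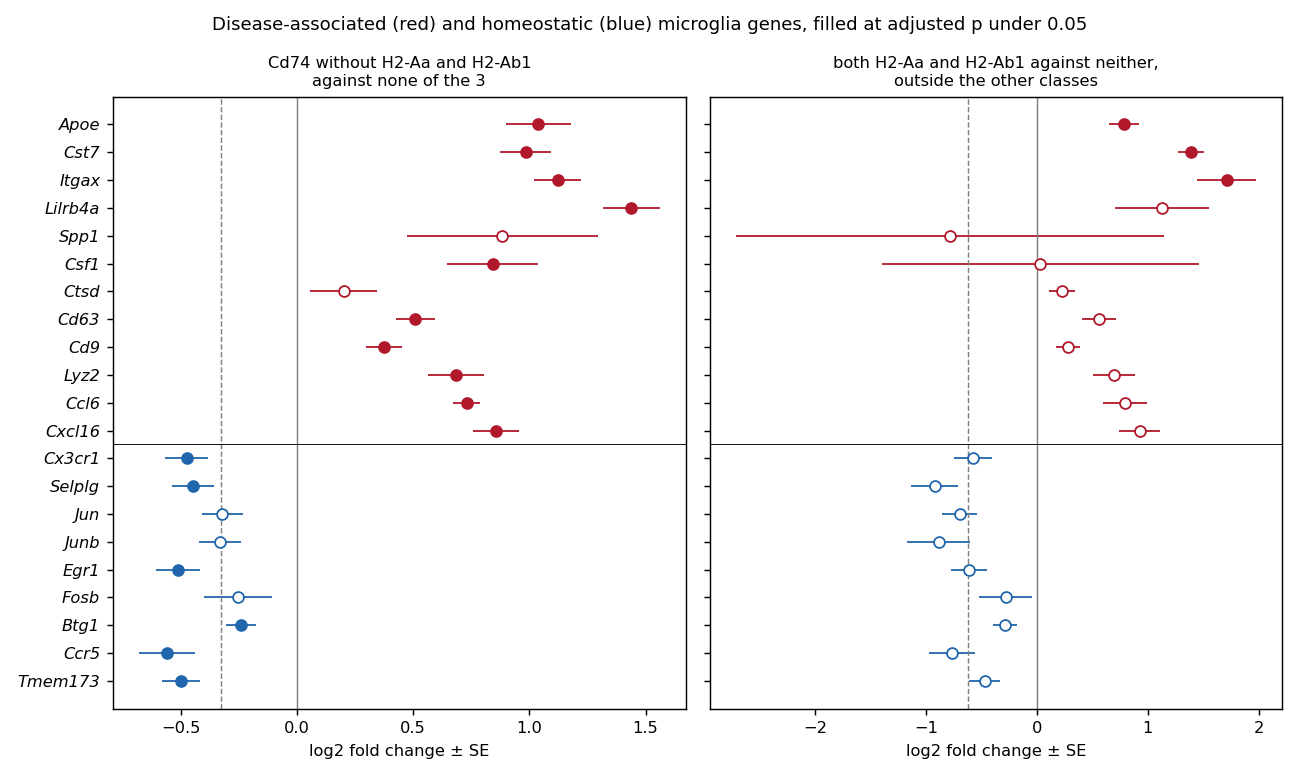
Log2 fold changes (x axis, points with lines of 1 SE) of the disease-associated (red) and homeostatic (blue) microglia genes, for cells with Cd74 and no chain against cells with none of Cd74, H2-Aa and H2-Ab1 (left) and for cells with both chains against cells with neither outside the other classes (right). Filled points had an adjusted p under 0.05 and the dashed line is the median of all genes tested, at -0.33 on the left, where 12 of 12 disease-associated genes lay above it, and at -0.62 on the right.

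Cells with H2-DMa alone were then set against cells with none of the 4 genes, and 2 genes passed. Of 339 genes tested, Cd34, a sialomucin, rose by 0.42 ± 0.05 (edgeR adjusted p = 0.0230) and Lilrb4a fell by 1.09 ± 0.09 (adjusted p = 0.00645), 0.295% in each direction, with 84 genes at an unadjusted p under 0.05 and 77 of 355 called by DESeq2 (36 higher and 41 lower). Neither passed without Abi3-/- male 2 or without either Abi3+/+ male. Lilrb4a was at 264, 581, 254 and 438 CPM with H2-DMa alone, against 758, 1349, 531 and 995 with none. It was lower in every mouse, opposite to its rise in cells with Cd74, but the comparisons share no test of that difference. In cells outside the other classes 15 genes (4.89%) rose and 7 (2.28%) fell. The falls included Mgst1 (-1.74), Lgals3 (-1.49) and Apoe (-0.41) beside Lilrb4a (-1.17), and among the rises were Cd34 (0.31) and the chemokines Ccl6 and Ccl9 (0.29 each). Of the list of disease-associated genes 1 rose and 2 fell there. The summed level of 7 ependymal and astrocyte markers was lower with H2-DMa alone in every mouse there, at 42, 165, 100 and 192 CPM against 382, 296, 324 and 542. In all Trem2-positive cells the sum of 15 T cell markers was 51 to 373 CPM against 459 to 2877, also lower in every mouse. The sum of 12 B cell markers was 201, 107, 310 and 365 CPM against 363, 141, 342 and 787. The plasma cell sum and the oligodendrocyte marker were lower too, and the sum of 10 microglia markers was higher in every mouse. The B cell and microglia differences kept their direction in every mouse outside the other classes. The part of these markers in the calls was not tested. Cells with H2-DMa alone were read more deeply, at medians of 24656, 19690, 20456 and 23490.5 reads per cell against 20389, 16002, 17186 and 20091.

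Macrophage or monocyte-like cells had all 4 members in 60.8% of 171 cells, against 45.3% of 53 B cell-like cells. Pooled over mice, H2-Aa and H2-Ab1 were more frequent in B cell-like cells (75.5% and 71.7% against 68.4% and 65.5%). This did not hold in Abi3+/+ male 1, where 66.7% of the B cell-like cells had each chain. Nor did it hold for H2-Ab1 in Abi3-/- male 1, where 3 of 4 B cell-like cells had it, against 76.9%. The macrophage or monocyte-like class rested on markers such as Ccr2 (58.5% of cells), Itga4 (70.8%), Clec10a (43.3%), F13a1 (31.6%) and Cd163 (26.9%), and 52.6% had Trem2. Cd74 had a read in 84.6% and 64.3% of those of Abi3-/- males (26 and 56 cells) and in 78.4% and 63.5% of those of Abi3+/+ males (37 and 52 cells). H2-Aa was found in 80.8%, 55.4%, 81.1% and 67.3% of these cells, H2-Ab1 in 76.9%, 55.4%, 78.4% and 61.5%, and H2-DMa in 80.8%, 85.7%, 83.8% and 71.2%. Thus H2-DMa was no more frequent than H2-Aa in 1 of the mice, unlike in the Trem2-positive cells.

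Both chains were found in 111 of the 171 cells (64.9%) and a single chain in only 7. All 111 had Cd74 and 104 had H2-DMa. Of the 51 cells without Cd74 none had H2-Ab1. Cd74 without a chain was rare, in 6 cells (3.51%), in contrast to its frequency among Trem2-positive cells as a whole, whereas H2-DMa without a chain was found in 30. The 53 cells with neither chain, of which Abi3-/- male 2 gave 24, differed from the 111 in the class itself, and their shares are a description because the class may mix cell types. H2-Eb1 was found in 95.5% of cells with both chains and 1.89% of those with neither, and Flt3, a gene of dendritic cells, in 48.6% and 11.3%. Genes of monocytes and macrophages, of which dendritic cells share Clec10a, did not go one way. Ccr2 was found in 65.8% and 47.2%, Clec10a in 47.7% and 30.2%, and Cd163 in 25.2% and 28.3%. Chil3 was found in 7.21% and 39.6% and F13a1 in 23.4% and 47.2%. Abi3-/- male 2 gave 15 of the 21 cells with Chil3 and 15 of the 25 with F13a1 that had neither chain. H2-DMa was in 93.7% of the cells with both chains and still in 56.6% of those with neither.

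Between the genotypes no class II gene passed the test in macrophage or monocyte-like cells. Cd74 gave 71664 and 57017 CPM in Abi3-/- males and 66922 and 40961 in Abi3+/+ males, and H2-Aa 175788 and 114575 against 171909 and 121018. The mice of each genotype interleaved, and none of the 4 members had a higher level in both Abi3-/- males, as 11.1% of the 270 genes tested had. The log2 fold changes were 0.38 ± 0.47 for Cd74, 0.11 ± 0.53 for H2-Aa, 0.07 ± 0.50 for H2-Ab1 and 0.29 ± 0.48 for H2-DMa (edgeR, adjusted p between 0.938 and 0.966). Of 270 genes tested none passed in edgeR, 16 (5.93%) had an unadjusted p under 0.05, and DESeq2 called 16 of 308 (5.19%).

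B cell-like cells were few, 4 and 20 in Abi3-/- males and 3 and 26 in Abi3+/+ males, so no genotype test was made. Cd79a and Cd79b, the signalling chains of the B cell receptor, had reads in every one of the 53 cells. Class II reads were found in most of them. H2-Aa had a read in 40 of the 53 cells (75.5%), H2-Ab1 in 38 (71.7%), Cd74 in 34 (64.2%, exact 95% interval 49.8% to 76.9%) and H2-DMa in 28 (52.8%). Both chains were found in 37 cells and all 4 members in 24. Cd74 without a chain was seen in 2 cells, both of Abi3+/+ male 2, and H2-DMa without a chain in 0 of 53 cells, which allows a share of up to 5.66% of cells with a read. B cell-like cells had medians of 9333 to 16829.5 reads per cell, less than macrophage or monocyte-like cells (32035 to 40513), so that shares of the 2 classes are not at equal depth. Their H2-Aa levels were 66543, 65233, 106555 and 35114 CPM.

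T cell-like cells had reads of Cd3e in 91.0% and Trac in 91.3%, of Cd8a in 67.4% and of Cd4 in 14.9%, so that most were of the CD8 kind, whose receptors see class I. Cd74 was read in 1 of 97 and 3 of 72 cells of Abi3-/- males and in none of the 72 and 81 cells of Abi3+/+ males, which allows shares of up to 4.17% and 3.70%. H2-Ab1 was found in 0 of 322 (up to 0.932%) and H2-Aa in 1. H2-DMa had a read in 13.4% and 18.1% of the T cell-like cells of Abi3-/- males and in 8.33% and 12.3% of those of Abi3+/+ males. The groups did not overlap. Of the 293 genes tested, 22.2% were likewise more frequent in both Abi3-/- males and 8.19% were less frequent, and C1qa, which T cells do not express, had a read in 8.70% of the same cells. The levels of H2-DMa, 506 and 615 against 383 and 565 CPM, overlapped, and its log2 fold change was 0.23 ± 0.59 (edgeR adjusted p = 0.969). None of the 293 genes passed in edgeR, 14 (4.78%) had an unadjusted p under 0.05 and DESeq2 called 4 of 325 (1.23%). In neutrophil-like cells H2-Aa and H2-Ab1 had reads in 0 of 114 cells (up to 2.63%), and Cd74 (2 cells) and H2-DMa (4 cells) in Abi3-/- male 2 alone.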

How the data were processed

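Brain cells of 4 mice were profiled with the BD Rhapsody Mouse Immune Response panel, 1 library per mouse, after cold enzymatic dissociation and myelin removal. The deposited values are whole read counts per gene and cell, which the authors made by running the Targeted Analysis Pipeline of BD Rhapsody in SevenBridges with default settings, including distribution-based error correction. The submitters' processing notes name the build mm10, and the pipeline version is not given in the sources used here. No doublet caller was run beyond the limit of 59300 reads.

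Kept cells were log-normalized (scale 10000) and clustered in Seurat 5.3.0 (R 4.3.3) on 10 principal components at a resolution of 0.8, without 7 class II genes. Of 16 clusters 5 were named, each with at least 3 markers of its type among its 10 leading genes. Reads were summed per mouse and cell group and tested over all panel genes with edgeR 4.0.16 (quasi-likelihood, TMM, filterByExpr, Benjamini-Hochberg, threshold 0.05), with the mouse as a block for cell groups of the same mice. A gene with 1 read counted as detected. Floors of a count of 0 are 3 counts of the total, and intervals are exact 95% binomial. Alternatives were DESeq2 1.42.0, limma 3.58.1, other scalings and filters, thinning, other resolutions, marker gates and leaving out each mouse. Tests were run first on simulated data, where they recovered nearly all changed genes at a low spread and few or none at the observed spread, so that a gene that did not pass is not shown to be unchanged. At the low spread they also called 6 to 22 unchanged genes in a fit of 270 to 354 genes, of which 200 were changed. At the observed spread 0 or 1 unchanged gene was called. The members and gene lists were chosen with earlier results of these data known. Besides members and list genes, up to 10 genes in each direction with the largest fold change past the threshold, and on the same side in every mouse, were eligible to be named, together with the 5 genes most like each member. H2-Ob, Lgals3 in the comparison of H2-DMa, and the genes of clusters and of the split of macrophage or monocyte-like cells were named after their values were seen. Replicate numbers of the genotypes do not mark a pair.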

Additional observations from a re-analysis of the deposited data

Results flagged for a closer look

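In the comparison of Trem2-positive cells with both chains against those with neither, H2-Ob moved in opposite directions in the genotypes. Its mean log2 difference (of CPM + 1) was -0.12 in the Abi3-/- mice and 0.22 in the Abi3+/+ mice, both mice of a genotype lying on the same side of 0. In the comparison of cells with H2-DMa alone against cells with none of the 4 genes, H2-DMb2 did likewise, with 0.46 in the Abi3-/- mice and -0.0700 in the Abi3+/+ mice. Neither difference was tested.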

How the results depend on the processing

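Of the alternative values of main results 396 were within the limits set for them, 42 moved, 6 turned and 1 passed the threshold. Of those of single genes 481 stayed, 148 lost the threshold and 18 turned. DESeq2 called 12 genes for genotype in Trem2-positive cells (0 in edgeR; Cd74 1.14), 16 in macrophage or monocyte-like cells, 4 in T cell-like cells, 111 for cells with both chains (12 in edgeR), 122 for Cd74 without a chain (53) and 77 for H2-DMa alone (2). For cells with both chains, size factors of DESeq2 gave 24 calls, library size 31, no low-count filter 25 and cells outside the other classes 6. There Clec10a (-1.79), Flt3 (-3.16), Fn1 (-1.51) and Lgals1 (-0.31) turned, all but Lgals1 being leading genes of a class left out. For H2-DMa alone cells outside the other classes gave 22. H2-DMa in cells with Cd74 and no chain was -0.0808 with library size and -0.0164 with at least 20 reads as detected, an alternative chosen after seeing the data. In macrophage or monocyte-like cells H2-Aa was -0.0127 with library size and -0.20 with limma, and H2-Ab1 -0.0499 and -0.0570. H2-DMa in T cell-like cells was -0.12 at a resolution of 1.2. The share of cells with both chains that had Cd74, 93.1% as a mean over mice, was 91.2% with all cells and 89% outside the other classes, and that with H2-DMa, 88.4%, was 81.6% there. Marker gates gave H2-DMa in 88.2% of macrophage or monocyte-like cells (80.4%), and thinning gave B cell-like means of 78.2% for Cd74, 82% for H2-Ab1 and 81.1% for both chains. Causes were not tested.

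Replicate numbers of the genotypes share only a number (deviations correlated at 0.33 between like numbers of 2 pairs). A replicate block over the genotypes gave 6 calls in macrophage or monocyte-like cells (0 without). Without the block by mouse, cells with both chains gave 54 calls, Cd74 without a chain 1 (disease-associated list 1 higher, homeostatic list 0 lower) and H2-DMa alone 0.

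Leaving out each mouse gave fold changes from -0.41 to 0.95 for H2-Aa and -0.19 to 1.08 for H2-Ab1 in Trem2-positive cells, and in macrophage or monocyte-like cells -0.27 to 0.46 for H2-Aa, -0.35 to 0.53 for H2-Ab1 and -0.29 to 0.71 for H2-DMa. T cell-like cells gave 0 to 4 calls and -0.0360 to 0.54 for H2-DMa. Cells with both chains gave 0 to 17 calls, H2-DMa alone 0 to 3, and Cd74 without a chain 8 to 56 (disease-associated list 4 to 11, homeostatic list 0 to 7, H2-DMa -0.0387 to 0.0633). Differences in shares (Abi3-/- minus Abi3+/+) ranged from -0.247 to 5.90 percentage points for both chains, -0.183 to 5.08 for all 4 members and -6.04 to 1.98 for H2-DMa alone. In these fits a genotype is left with 1 mouse, which is assumed to vary like the others. A gene with no read in a cell was not detected at that cell's depth, which does not show that it was absent.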
